A study of Mus musculus with 6 samples.

Results

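The genes of triglyceride assembly encode the enzymes that join fatty acids to a glycerol backbone to make triglyceride, the main lipid of milk. They were compared between mammary epithelial cells with and without Cre-driven loss of the insulin receptor. The 10 genes, chosen by name with earlier results of these data known, were Gpd1, Gpam, Agpat6, Agpat1, Agpat2, Lpin1, Lpin2, Dgat1, Dgat2 and Mogat1. Of 28853 probe sets on the array, 9 carried exactly one of these names, each for a different gene. Agpat1 had no probe set of its own, because both probe sets that name it also name the neighbouring gene Egfl8. Mogat1 was too dim to be tested, which left 8 tested genes.

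All 6 mice were pregnant females homozygous for a floxed insulin receptor gene (IRfl/fl), bred with CD1 males and killed on day 13.5 of pregnancy. The 3 Cre- mice carried no Cre and keep the receptor, and the 3 Cre+ mice also carried Cre recombinase under a BLG (beta-lactoglobulin, a milk protein) promoter. The groups therefore differ in the transgene itself as well as in the deletion, and no source used here states the ages of the mice. Each mouse gave 1 Affymetrix MoGene 1.0 ST array of total RNA from cells freed by collagenase. Values are linear intensities after robust multi-array averaging (RMA), and a log2 change is Cre+ minus Cre-.

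Triglyceride is built in steps. Gpd1 makes glycerol 3-phosphate from an intermediate of glycolysis, glycerol 3-phosphate acyltransferases add the first fatty acid, and lysophosphatidic acid acyltransferases add the next to give phosphatidic acid. Lipins remove the phosphate to give diacylglycerol, and the diacylglycerol acyltransferases Dgat1 and Dgat2 add the last fatty acid. Dgat1 and Dgat2 catalyse the same reaction but belong to unrelated protein families. Mice without Dgat1 fail to lactate, and mice without Agpat6 make milk poor in triglyceride. In late pregnancy and lactation the alveolar cells of the mammary gland make and secrete large amounts of this lipid.

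Insr, the targeted gene, was lower in Cre+ cells at both of its probe sets. Its log2 change was -0.95 (SE 0.15, n = 3 and 3) with adjusted p = 0.0231 at the one, and -0.52 (SE 0.09) with adjusted p = 0.0285 at the other, in limma. Each Insr call was kept under 2 of the 6 omissions of an array, with adjusted p up to 0.106, and the labels do not place the probes relative to the deleted part. The mean log2 level of 12 luminal alveolar markers, among them caseins and Wap, was 9.25 to 10.6 over the arrays. Single markers differed widely, with log2 changes from -3.69 for Lalba to -0.10 for Csn2. Lalba gave 1191, 1170 and 2119 in Cre- and 109, 88.5 and 142 in Cre+ cells. Wap gave 5277, 2206 and 2890 against 347, 363 and 879. Basal, fibroblast and lymphocyte markers were also measured, so the digests held several cell types. In such bulk samples fewer cells of a type and less RNA per cell cannot be told apart. The Cre- 1 and Cre+ 7 arrays had the highest lymphocyte marker levels of their groups (mean log2 7.09 and 6.32), and results without both are given where they matter.

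The transcripts of Gpd1, Gpam and Lpin1 fell in Cre+ cells and that of Dgat2 rose. Of the 8 tested genes these 3 fell, 1 rose and 4 did not pass (Agpat6, Agpat2, Lpin2 and Dgat1), in limma with Benjamini-Hochberg adjustment and a threshold of 0.05. Among all 16921 tested probe sets, 2.14% fell and 2.03% rose by the same rule. The groups did not overlap for 6 of the 8 genes, with Cre+ lower for 5 and higher for 1, where 12.7% and 12.9% of all tested probe sets did so. The median log2 change of the 8 genes was -0.27, against 0.00 for all tested probe sets. Without the Cre- 1 and Cre+ 7 arrays 3 again fell and 1 rose, against 2.95% and 2.68% of all tested probe sets. Leaving out Cre- 1 or Cre- 4 gave 2 falls, leaving out any other array gave 1, and among single omissions the rise was called only for Cre- 1. On the same arrays 11 of 12 luminal alveolar markers fell and 0 rose, with mean log2 levels of 10.4 to 10.6 in Cre- and 9.25 to 9.53 in Cre+ cells, and their part in these results was not tested.

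**Figure D1:**
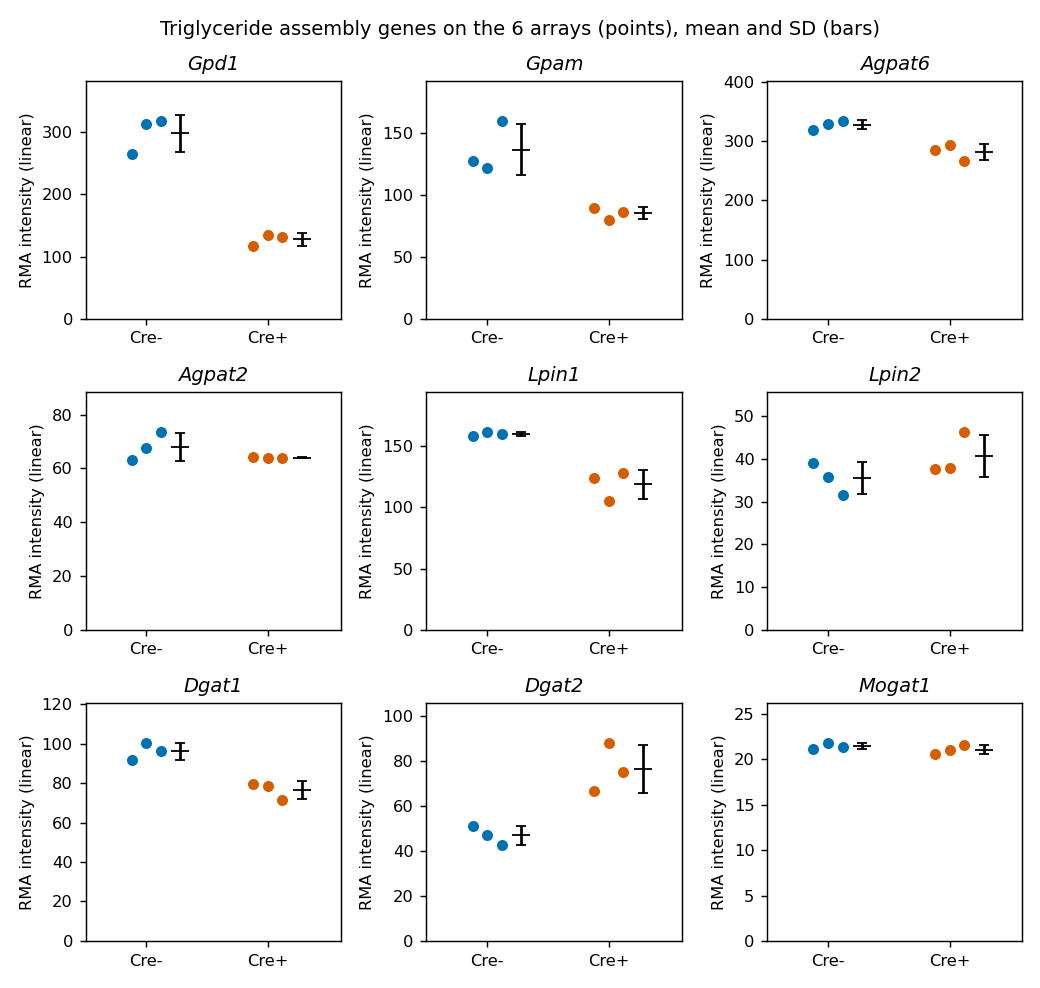
RMA intensity (linear scale from 0) of the 9 genes with a probe set of their own on the 3 Cre- and 3 Cre+ arrays. Points are arrays and the bars beside them give the mean and SD. Gpd1, Gpam, Agpat6, Lpin1 and Dgat1 lie lower on every Cre+ array, Dgat2 lies higher on every Cre+ array, and Agpat2, Lpin2 and Mogat1 overlap.

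Gpd1, the cytosolic glycerol 3-phosphate dehydrogenase that supplies the backbone, had the largest change. Its intensities (probe set 10426812) were 265, 313 and 319 on the Cre- arrays 1, 2 and 4, and 116, 135 and 132 on the Cre+ arrays 5, 6 and 7. The groups lay far apart, with the highest Cre+ value below the lowest Cre- value. Gpd1 fell by 1.22 on the log2 scale (SE 0.10, 95% interval -1.46 to -0.99), a 2.34-fold difference, with adjusted p = 0.00318 in limma. A fall at least as large was seen at 0.124% of all tested probe sets. Gpd1 was the only member called whichever array was left out, with adjusted p between 0.00376 and 0.0274.

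Gpam encodes the mitochondrial glycerol 3-phosphate acyltransferase, a classical target of SREBP-1c and of insulin in liver. Its intensities (probe set 10468533) were 127, 122 and 160 in Cre- and 89.2, 79.9 and 86.4 in Cre+ cells. Cre- 4 was the highest array, and every Cre+ value was below every Cre- value. Gpam fell by 0.67 (SE 0.12, 95% interval -0.94 to -0.40), 1.59-fold, with adjusted p = 0.0277 in limma. Omitting Cre- 2 gave adjusted p = 0.0688, Cre+ 5 gave 0.0909, Cre+ 6 gave 0.102 and Cre+ 7 gave 0.0670, so each of these ended the call. Over the 6 omissions the change lay between -0.75 and -0.55.

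Agpat6 (now Gpat4), the acyltransferase of the endoplasmic reticulum for the same step, moved less. It gave 320, 329 and 335 in Cre- cells and 285, 294 and 267 in Cre+ cells (probe set 10577604). The values were close within each group and the groups did not overlap. Its log2 change was -0.22 (SE 0.07, 95% interval -0.38 to -0.05), which did not pass (adjusted p = 0.141 in limma). The log2 ratio of Agpat6 to Gpam, a pair compared after their values were seen, was higher in Cre+ cells by 0.45 (95% interval 0.08 to 0.82).

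At the next step, Agpat2, an acyltransferase of lysophosphatidic acid that is prominent in adipose tissue, did not pass. It had intensities of 63.2, 67.4 and 73.6 in Cre- and 64.2, 64.0 and 63.9 in Cre+ cells (probe set 10481092). The groups overlapped, since Cre- 1 lay below all 3 Cre+ arrays. The log2 change was -0.09 (SE 0.09, 95% interval -0.29 to 0.12, adjusted p = 0.666 in limma), and it was -0.03 without Cre- 4 and -0.14 without Cre- 1. Agpat1 could be read only through its shared probe sets. The brighter of these gave 176, 165 and 163 in Cre- and 152, 153 and 148 in Cre+ cells, with a log2 change of -0.15 (SE 0.07, adjusted p = 0.306 in limma with such probe sets entered). The dimmer gave 37.1, 39.6 and 39.0 against 36.9, 40.2 and 35.9, with overlapping groups. Neither value can be assigned to Agpat1 rather than Egfl8.

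The lipins convert phosphatidic acid to diacylglycerol. Lpin1, the form that also acts as a transcriptional coactivator in liver, gave 158, 162 and 160 in Cre- cells and 124, 105 and 128 in Cre+ cells (probe set 10399478). The Cre- arrays lay within a narrow range and all Cre+ arrays lay below it. Lpin1 fell by 0.43 (SE 0.09, 95% interval -0.65 to -0.22), 1.35-fold, with adjusted p = 0.0473 in limma. That value is close to the threshold, and the call was lost under each of the 6 omissions of an array, with adjusted p between 0.0653 and 0.160 and a log2 change between -0.49 and -0.35.

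Lpin2, a second lipin, moved the other way without passing. Its intensities (probe set 10446656) were 39.1, 35.7 and 31.6 in Cre- and 37.6, 37.9 and 46.3 in Cre+ cells. Only Cre+ 7 lay above the Cre- range. The log2 change was 0.19 (SE 0.11, 95% interval -0.07 to 0.45, adjusted p = 0.395 in limma). It was 0.10 without Cre+ 7, 0.11 without Cre- 4, 0.04 with the adipocyte covariate and 0.34 with 16 taken off before log2. The log2 ratio of Lpin2 to Lpin1 on each array, a pair chosen after the values were seen, was -2.02, -2.18 and -2.34 in Cre- and -1.72, -1.47 and -1.46 in Cre+ cells. The groups did not overlap, and the ratio was higher in Cre+ cells by 0.63 (95% interval 0.28 to 0.97), or by 0.40 with the adipocyte covariate.

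**Figure D2:**
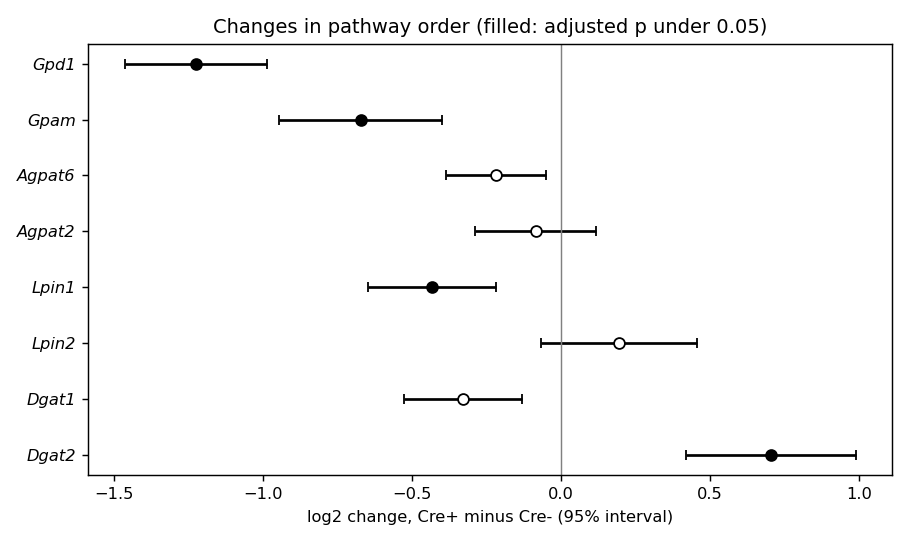
Log2 change (Cre+ minus Cre-) of the 8 tested genes with the 95% interval of the moderated fit, from the start of the pathway at the top to its last step. Filled points passed an adjusted p of 0.05: Gpd1 (-1.22), Gpam (-0.67) and Lpin1 (-0.43) lie below 0 and Dgat2 (0.70) above.

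Gpam and Lpin1 are the genes that fell for which RefSeq promoter windows could be shown, and these are printed to give the sequence context of the falls. Each runs from 250 bases before to 50 after a transcript start in GRCm38.p6, at chr19:55127189-55127488 (minus strand) for Gpam and chr12:16610917-16611216 (minus strand) for Lpin1, and capitals mark motif matches.
Gpam: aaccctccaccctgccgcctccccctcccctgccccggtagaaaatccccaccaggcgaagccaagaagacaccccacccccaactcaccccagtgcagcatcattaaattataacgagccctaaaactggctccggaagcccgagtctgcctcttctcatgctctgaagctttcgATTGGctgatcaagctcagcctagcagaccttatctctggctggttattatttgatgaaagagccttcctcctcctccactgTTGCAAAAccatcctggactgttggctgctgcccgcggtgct
Lpin1: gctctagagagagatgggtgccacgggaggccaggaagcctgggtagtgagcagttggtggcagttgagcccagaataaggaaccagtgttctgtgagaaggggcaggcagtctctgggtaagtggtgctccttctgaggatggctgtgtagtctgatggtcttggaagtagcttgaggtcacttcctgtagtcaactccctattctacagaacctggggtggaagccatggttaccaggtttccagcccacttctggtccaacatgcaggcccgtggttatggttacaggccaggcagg
The search covered both strands for a FoxO site (TGTTTAC), a STAT site (TTCNNNGAA), the CCAAT box (CCAAT), an SREBP site (TCACNCCAC), an E-box (CACGTG), a C/EBP site (TTGCNNAA) and the GC box (GGGCGG). RefSeq gives a further Gpam start, whose window at chr19:55099428-55099727 (minus strand) is not printed and held a GC box 16 bases before the start and no other match. The printed Gpam window held a CCAAT box on the reverse strand, starting 74 bases before the start, and a C/EBP site 8 bases after it, with no overlap. Of 32851 RefSeq promoter windows, 37.4% held a CCAAT box and 10.8% a C/EBP site. The Lpin1 window held no match, which says only that these letters are not in it. The other motifs occurred in 3.65% (FoxO), 8.30% (STAT), 1.24% (SREBP), 7.15% (E-box) and 35.7% (GC box) of the windows. RefSeq windows were found for 6 of the 10 genes.

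The final step was the only one at which a member rose. Dgat1, the acyltransferase required for lactation in mice, gave 91.7, 100.4 and 96.3 in Cre- and 79.6, 78.7 and 71.5 in Cre+ cells (probe set 10429926). All Cre+ arrays lay below all Cre- arrays. The log2 change was -0.33 (SE 0.08, 95% interval -0.52 to -0.13), 1.26-fold, and missed the threshold with adjusted p = 0.0776 in limma. It passed in 3 of the alternative fits, namely without an intensity trend (adjusted p = 0.0450), with array weights (0.0367) and with a lymphocyte covariate (0.0286), and under 0 of the 6 omissions (0.0820 to 0.242).

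Dgat2, the other diacylglycerol acyltransferase, is known in liver and adipocytes for incorporating newly made fatty acids. It gave 50.9, 46.9 and 42.8 in Cre- cells and 66.9, 88.0 and 74.9 in Cre+ cells (probe set 10565775). The lowest Cre+ array, Cre+ 5, was above the highest Cre- array, and Cre+ 6 was highest. Dgat2 rose by 0.70 (SE 0.12, 95% interval 0.42 to 0.99), 1.63-fold, with adjusted p = 0.0279 in limma, and 0.833% of all tested probe sets had a rise at least as large. The change lay between 0.60 and 0.80 over the 6 omissions. The call remained without Cre- 1 (adjusted p = 0.0253) and ended with any other omission, at 0.102 for Cre- 2, 0.0742 for Cre- 4, 0.0680 for Cre+ 5, 0.0880 for Cre+ 6 and 0.0693 for Cre+ 7.

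Dgat2 was set against Dgat1 through their ratio on each array, which compares their changes and not their levels, since probe sets differ in how brightly they report. The linear ratio of Dgat2 to Dgat1 was 0.556, 0.467 and 0.445 in Cre- cells and 0.840, 1.12 and 1.05 in Cre+ cells. Every Cre+ ratio was above every Cre- ratio. On the log2 scale the ratio was -1.04 ± 0.17 (SD, n = 3) in Cre- and -0.01 ± 0.22 (SD, n = 3) in Cre+ cells, a difference of 1.03 (SE 0.16, 95% interval 0.59 to 1.47), or 2.04-fold. The exact permutation test, two-sided, gave p = 0.1, the smallest that 3 against 3 arrays allow. The difference was between 0.95 and 1.15 whichever array was left out and 1.09 without Cre- 1 and Cre+ 7. With 16 taken off each intensity before log2, it was 1.37. With the mean adipocyte or the mean luminal alveolar marker level as a covariate it was 0.72 and 0.77, respectively.

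Gpd1 was also set against Gpd1l, a close relative from the list of other triglyceride enzymes, after their values were seen. The log2 ratio of Gpd1l to Gpd1 was -1.37, -1.55 and -1.46 in Cre- and -0.64, -0.76 and -0.71 in Cre+ cells, higher by 0.76 (95% interval 0.58 to 0.94). In all, 4 pairs were compared, and each had an exact permutation p of 0.1, which remained 0.1 after adjustment over the 4. Only the Dgat2 to Dgat1 pair was planned. The adjustment does not cover the choice of the others from the same values, so their separation is a description and not a test.

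**Figure D3:**
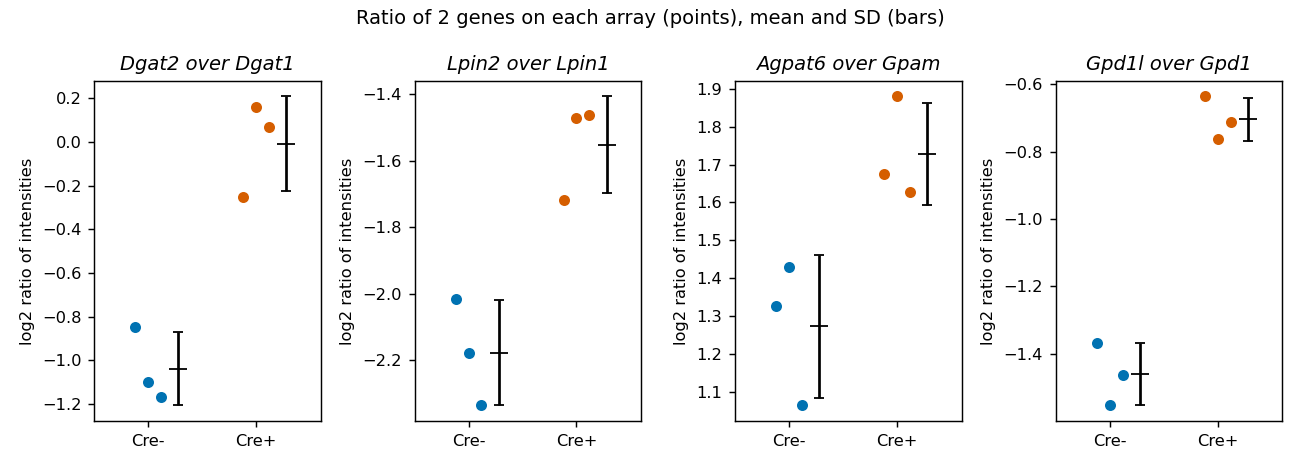
Log2 ratio of intensities of 2 genes on each array for the 4 pairs, with points for arrays and bars for mean and SD. Each panel has its own axis. Every Cre+ point lies above every Cre- point in all 4 panels, and the Dgat2 to Dgat1 ratio differs most, by 1.03. The pairs other than Dgat2 to Dgat1 were chosen after their values were seen.

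Mogat1, which makes diacylglycerol from monoacylglycerol in a separate route, was near the bottom of the intensity range. It gave 21.2, 21.8 and 21.3 in Cre- and 20.6, 21.1 and 21.6 in Cre+ cells (probe set 10347741), with overlapping groups, against a testing level of 22.4. Without the intensity filter its log2 change was -0.02 (SE 0.02, adjusted p = 0.676 in limma). Any change at this level could not be read, since the lowest intensity on the arrays was 18.7.

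In the authors' deposited table the ratio of Cre+ to Cre- means was 0.43 for Gpd1, 0.62 for Gpam, 0.74 for Lpin1, 0.80 for Dgat1 and 1.63 for Dgat2. The unadjusted p-values there were 0.0007 for Gpd1, 0.0042 for Lpin1, 0.0056 for Dgat1, 0.0075 for Agpat6, 0.0108 for Dgat2 and 0.0135 for Gpam in the authors' deposited table. After Benjamini-Hochberg adjustment of the authors' deposited p-values over the same probe sets 0 members passed, against 4 in limma. Unadjusted, 6 of the 8 tested members had a p under 0.05 both in the authors' deposited table and in limma, where 16.9% and 20.0% of all tested probe sets did.

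The genes around the pathway were compared in 5 lists, with 67 of 81 listed genes tested. Of these 67, 15 fell and 0 rose, against 2.14% and 2.03% of all tested probe sets. The lists were chosen with earlier results of these data known, so these shares are a description and not a test. At an unadjusted p under 0.05 in limma there were 25 of the 67 below 0 and 2 above, against 9.83% and 10.2% of all tested probe sets. Of the 15, only Thrsp was called whichever array was left out, and the other 14 were called under 1 to 3 of the 6 omissions. Leaving out Cre- 1 gave 14 falls, Cre- 2 gave 2, Cre- 4 gave 3, Cre+ 5 and Cre+ 6 gave 1 each, and Cre+ 7 gave 9. Leaving out the pair of Cre- 1 and Cre+ 7 gave 18.

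Of 14 tested further enzymes of triglyceride synthesis, 3 fell and 0 rose, with a median log2 change of -0.01. Gpd1l fell by 0.47 (SE 0.08, adjusted p = 0.0304 in limma), from 103, 107 and 116 to 74.7, 79.4 and 80.5. Gyk (now Gk), glycerol kinase, which makes glycerol 3-phosphate from glycerol, fell by 0.57 (SE 0.11, adjusted p = 0.0402). Agpat3, an acyltransferase of lysophospholipids, fell by 0.54 (SE 0.11, adjusted p = 0.0383), from 134, 140 and 172 to 103, 99.1 and 103. Each of these 3 genes was called under 1 of the 6 single omissions (adjusted p up to 0.119, 0.146 and 0.126 in limma). For Gpd2, the mitochondrial enzyme that oxidises glycerol 3-phosphate, the log2 change was 0.09 (adjusted p = 0.665). Lpin3, the remaining lipin, changed by -0.12 (SE 0.05, adjusted p = 0.235). Agpat9 (now Gpat3) changed by 0.02, and Mogat2 by 0.01, and neither passed (adjusted p = 0.817 and 0.932 in limma).

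Of 12 tested genes of fatty acid uptake and activation, 5 fell and 0 rose, with a median log2 change of -0.43. Acsl4, which activates long fatty acids and prefers arachidonate, fell by 0.81 (SE 0.12, adjusted p = 0.0190 in limma). Slc27a1, a fatty acid transport protein, fell by 0.90 (SE 0.14), from 184, 212 and 245 to 121, 126 and 95.4. Cd36, a fatty acid translocase, fell by 0.78 (SE 0.15) and Acsl1, another acyl-CoA synthetase, by 0.44 (SE 0.08). The fifth was Fabp3, a fatty acid carrier (-1.64), named after its value was seen.

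Of 9 tested genes of triglyceride breakdown, 4 fell and 0 rose, with a median log2 change of -0.35. Abhd5, the activator of adipose triglyceride lipase, fell by 0.61 (SE 0.09) and Mgll, monoglyceride lipase, by 0.39 (SE 0.08). Lipa, the lysosomal acid lipase, fell by 0.58 (SE 0.11) and Ddhd2, a lipase of intracellular triglyceride, by 0.92 (SE 0.16, adjusted p = 0.0267 in limma). Pnpla2, adipose triglyceride lipase itself, changed by 0.00 (SE 0.09, adjusted p = 0.993).

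Phosphatidic acid and diacylglycerol also feed phospholipids. Of 18 tested phospholipid genes 2 fell and 0 rose, with a median log2 change of -0.09. Chka, choline kinase, fell by 0.60 (SE 0.09, adjusted p = 0.0214 in limma). Chpt1, which joins phosphocholine to diacylglycerol and so uses the same substrate as Dgat1 and Dgat2, fell by 0.47 (SE 0.09, adjusted p = 0.0353).

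Of 14 tested regulators 1 fell and 0 rose, with a median log2 change of -0.07. Thrsp, a nuclear and cytosolic regulator of lipogenesis, gave 927, 1008 and 1084 in Cre- and 518, 481 and 515 in Cre+ cells and fell by 0.99 (SE 0.08, adjusted p = 0.00303 in limma). The transcript of Srebf1, the lipogenic factor that acts on Gpam in liver, changed by -0.34 (SE 0.18, adjusted p = 0.351), and that of Pparg, the adipogenic factor, by -0.01 (SE 0.18, adjusted p = 0.992).

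**Figure D4:**
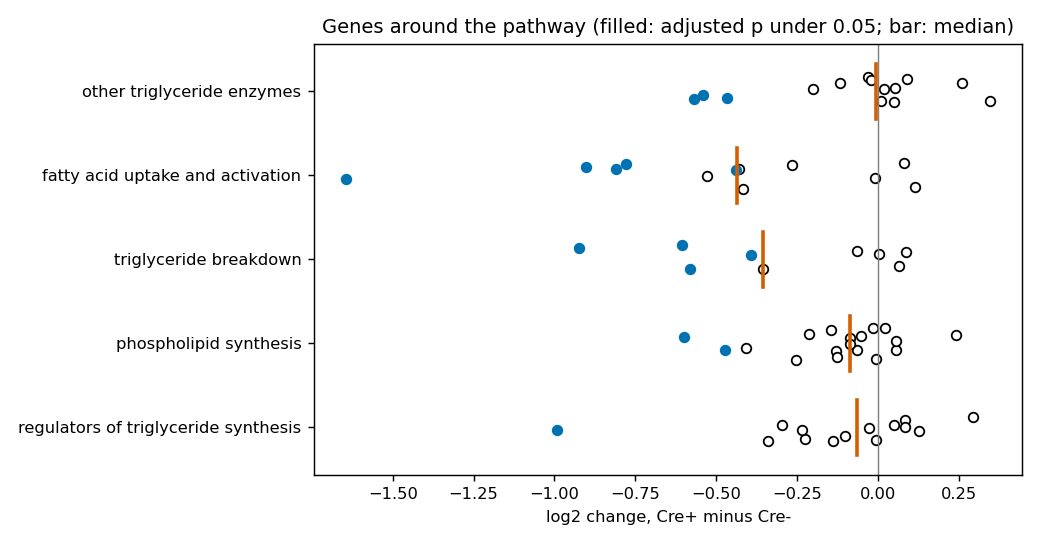
Log2 change (Cre+ minus Cre-) of each tested gene in 5 lists of genes around the pathway, with the median as a vertical bar. Filled points passed an adjusted p of 0.05. All 15 filled points lie below 0, with medians from -0.43 for uptake and activation to -0.01 for other triglyceride enzymes.

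Dgat2, Gpd1 and Agpat2 are also abundant in adipocytes, so adipocyte markers were read on the same arrays. Of 10 tested markers of 12, 0 rose and 0 fell in limma, with a median log2 change of 0.14. At an unadjusted p under 0.05 there were 4 above 0 and 1 below, against 10.2% and 9.83% of all tested probe sets. The list shares Lipe with the breakdown genes. Their mean log2 level was 5.07 to 5.22 in Cre- cells, and 5.17, 5.66 and 5.65 on Cre+ 5, 6 and 7. Among the defining markers, Adipoq, the adiponectin gene, gave 21.3, 22.2 and 21.8 against 22.2, 24.2 and 26.4, near the testing level of 22.4. Lep, the leptin gene, was below that level. The brighter Fabp4 gave 616, 403 and 288 against 540, 639 and 824, with overlapping groups. Cfd gave 33.5, 30.2 and 32.8 against 33.3, 119 and 93.8. Their log2 changes were 0.66 and 1.16, and neither passed (adjusted p = 0.221 and 0.169 in limma). Of the 10 tested markers 8 lay above 0 and 2 below. Car3, an abundant carbonic anhydrase of adipocytes, gave 38.1, 37.2 and 31.1 against 54.7, 293 and 303 (log2 change 2.26, SE 0.60, adjusted p = 0.0813 in limma). On Cre+ 5 the adipocyte mean lay within the Cre- range. Dgat2 was 66.9 and Car3 54.7 there, both above their highest Cre- values (50.9 and 38.1). Within each group the adipocyte mean and Dgat2 ranked the arrays in the same order. The fibroblast marker mean did so too, at 6.54, 6.00 and 5.62 in Cre- and 6.44, 6.86 and 6.76 in Cre+ cells. The part of adipocytes or fibroblasts in the rise was not tested. With the adipocyte mean as a covariate, which shared 53.8% of its variance with genotype, the Dgat2 change was 0.46 (adjusted p = 0.317) and 0 probe sets of the whole array passed, with 1926 of them and 4 members at an unadjusted p under 0.05.

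Markers of other cell types were read in the same way. Among all tested probe sets 2.03% rose and 2.14% fell in limma. At an unadjusted p under 0.05, 10.2% of them were higher and 9.83% lower. Of 10 basal myoepithelial markers 4 rose and 0 fell, and their mean log2 level was 7.13 to 7.71 in Cre- and 7.98 to 8.06 in Cre+ cells, without overlap. Fibroblast markers ranged from 5.62 to 6.54 and from 6.44 to 6.86, with 1 of 8 rising. Macrophage markers lay between 5.81 and 6.28 and between 6.19 and 6.36, with 2 of 8 rising and 1 falling. At an unadjusted p under 0.05 in limma, 8 of the 10 basal and 4 of the 8 fibroblast markers were higher and 0 lower. Of the 8 macrophage markers 3 were higher and 1 lower by that rule. For 7 markers of luminal epithelium in general, such as Krt8, the means were 8.74 to 9.43 and 8.65 to 8.98, with 0 called in limma and 2 lower at an unadjusted p under 0.05. None of 8 hormone-sensing, 6 endothelial or 10 lymphocyte markers passed in limma, and 3, 1 and 0 of them had an unadjusted p under 0.05. The part of these cell types in the rise of Dgat2 and in the falls of the other members was not tested.

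**Figure D5:**
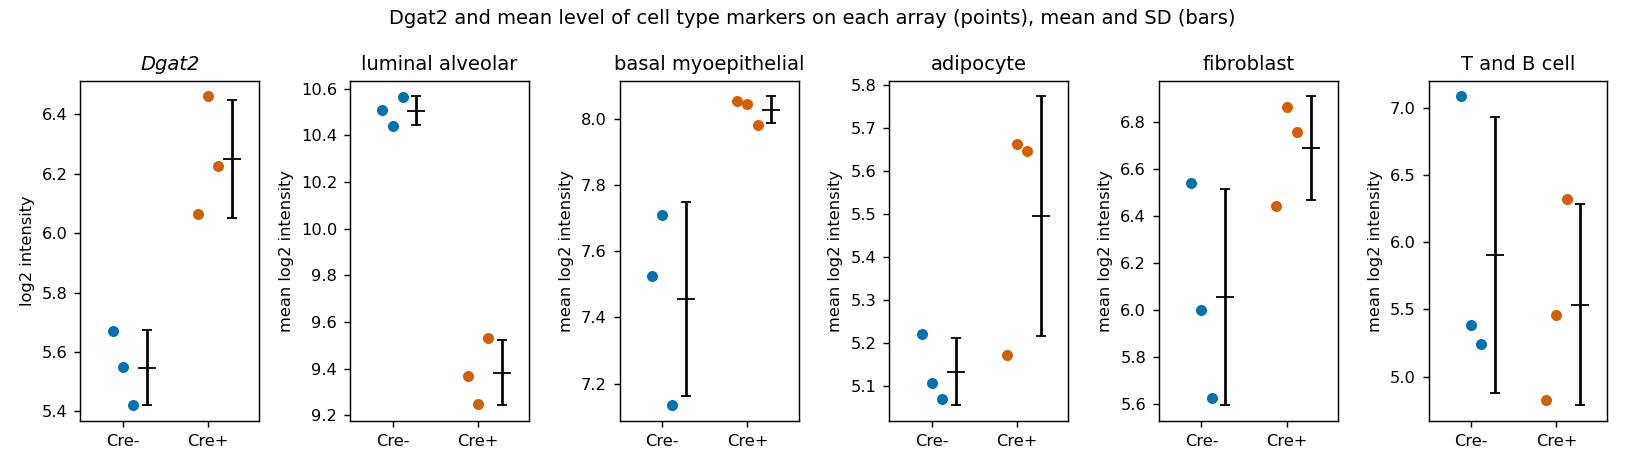
Log2 intensity of Dgat2 (left) and mean log2 intensity of 5 marker lists on each array, with bars for mean and SD. Each panel has its own axis. The luminal alveolar mean is lower and the basal mean higher on every Cre+ array than on any Cre- array. The adipocyte mean of the lowest Cre+ array (5.17) lies within the Cre- range. Within each group Dgat2, the adipocyte mean and the fibroblast mean rank the arrays in the same order.

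The genes whose values over the 6 arrays were most like those of Dgat2 were Prkcdbp (now Cavin3), a caveolar coat protein, Ppp1r14a, an inhibitor of myosin phosphatase, the small RNA Scarna13, Npm3-ps1 and Gja1, the connexin 43 gene. Likeness was the root mean square difference between log2 values centred on each gene's mean, and lay between 0.04 and 0.09 for these 5. Prkcdbp gave 62.9, 59.2 and 54.8 in Cre- and 79.4, 105.8 and 91.5 in Cre+ cells, in the same order of arrays as Dgat2. For Gpd1 the 5 nearest genes, at differences of 0.09 to 0.12, were Oplah, Ehhadh, Atp12a, Ndrg1 and Slc34a2. Oplah is an enzyme of glutathione turnover, Ehhadh a peroxisomal enzyme of fatty acid oxidation and Atp12a a proton pump. Slc34a2 is a phosphate transporter and 1 of the 12 luminal alveolar markers read above. Ehhadh gave 166, 163 and 193 in Cre- and 71.0, 80.0 and 72.5 in Cre+ cells. These are descriptions over 6 arrays, with no test.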

How the data were processed

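The deposited intensities were made by the authors with RMA (core exons, Expression Console), per the labels; its version, genome build and annotation were not stated in any source used here. They were linear, not log2 as the fixed design assumed, so log2 was taken. No value lay below 18.7, which shrinks the log2 changes of dim genes. The authors' deposited p-values and fold ratios were recomputed and matched by 100% (tolerances 2e-04 and 0.01). Of 28853 probe sets, 22984 named 1 gene, and those with a mean log2 at or above the 30th percentile (4.48, linear 22.4) were tested: 16921. Cre+ was compared with Cre- in limma 3.58.1 (R 4.3.3; lmFit, then trended eBayes), two-sided, and p-values were adjusted by Benjamini-Hochberg. The number of arrays limits the precision. No batch is given.

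Groups and mouse numbers came from sample titles. A listed gene was represented by its brightest probe set. Named genes were the members, Insr, up to 4 called genes per list by smallest p, and the 5 genes most like Dgat2 and Gpd1. Other genes are named after their values were seen. Members and lists were chosen with earlier results of these data known. The fit was tested on simulated data.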

Additional observations from a re-analysis of the deposited data

How the results depend on the processing

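No paired analysis was possible because the labels, which number Cre- mice 1, 2 and 4 and Cre+ mice 5, 6 and 7, state no pairing. The members that fell numbered 3 and lay between 1 and 2 with single arrays left out, and the 1 that rose lay between 0 and 1. Both were 0 with the authors' deposited p-values adjusted, and 0 with the luminal alveolar or the adipocyte covariate. The 15 falls of the pathway lists lay between 1 and 14 with single arrays left out and were 0 under those same 3 settings. Over all probe sets, 344 rises and 362 falls became 15 to 340 and 27 to 441 with single arrays left out, 722 and 715 with array weights, 857 and 916 with the lymphocyte covariate, 17 and 17 with the authors' p-values, and 0 and 0 with either other covariate. At an unadjusted p under 0.05 limma gave 3384 probe sets, 1345 with the luminal covariate (0 of them members), 1926 with the adipocyte covariate, and the authors' p-values 2860. The luminal alveolar mean shared 97.6% of its variance with genotype, so the 2 cannot be told apart. With it Gpam (0.22), Lpin1 (0.44), Agpat2 (0.069), Dgat2 (-0.15) and the Agpat6 to Gpam difference (-0.89) reversed with no call, and the Dgat2 to Dgat1 difference was 0.77. That difference was 0.72 with the adipocyte covariate and 1.37 with 16 taken off before log2. The Lpin1 call was also lost without the intensity filter (adjusted p = 0.0573), with median centring (0.0518) and with probe sets of several or no genes entered (0.0520), the last chosen after seeing the data. No other pair of Dgat2 and Dgat1 probe sets exists. Low intensities limit Mogat1, and also Agpat9 and Mogat2 of the further enzymes.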
